A study of Drosophila melanogaster with 2 samples.

Results

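Of the 11045 peaks in the thresholded list of gem-GFP binding sites, 299 (2.71%, 95% interval 2.41 to 3.03) lay at promoters of noncoding genes and of no protein-coding gene. A peak was placed here when its summit was within 500 bp of an annotated transcription start site (TSS) of a gene that is not protein-coding, with transposable elements left out, and when no protein-coding TSS was within 500 bp. These noncoding-only peaks were 8.90% (7.95 to 9.91) of the 3361 peaks at any promoter. Another 2893 peaks were at protein-coding promoters only, 169 were near TSSs of both kinds, and 7684 were distal to every TSS. The rule used the summit positions of listed peaks and annotated TSS positions, and no signal value.

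The peaks came from chromatin immunoprecipitation and sequencing (ChIP-seq) of whole Drosophila melanogaster embryos, aged 0-24 hours and of pooled sex. All embryos came from 1 transgenic line that expresses gem carrying GFP at its C-terminus, and the precipitation used an antibody to GFP. There was 1 group with 2 biological replicates, numbered 1 and 4, and no other genotype or condition. The labels do not state which promoter or copy number the tagged gene had, or whether the untagged gem was still present. Whole embryos mix all tissues and stages, so a signal cannot be placed in a cell type. Each peak carried a signal, which is its own value as the authors' peak caller gave it. Signals were compared within a list and not between lists. Read depth is unknown from these lists. All shares carry exact (Clopper-Pearson) 95% intervals, and differences of shares carry Newcombe 95% intervals. Both take peaks or genes as units and cover counting error only, and neighbouring peaks are not fully independent.

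Gem (gemini) is a fly transcription factor of the CP2 branch of the Grainyhead/CP2 family, whose members bind DNA through a conserved domain and recognise sites built around a CCGG core. Noncoding genes in flies are made by different machinery. Long noncoding RNAs (lncRNAs), antisense RNAs, most microRNA precursors and many small nuclear RNAs (snRNAs) are transcribed by RNA polymerase II, whereas transfer RNAs (tRNAs) and U6 snRNA are made by RNA polymerase III, with tRNA promoter elements inside the transcribed sequence. MicroRNAs and most small nucleolar RNAs (snoRNAs) are cut out of longer host transcripts, so their annotated start marks the end of a processed RNA or a hairpin and need not be a site where transcription begins.

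The following windows of 61 bases are centred on summits and show the sequence under a selection of noncoding-only peaks of several classes, strong and weak. They were read from the RefSeq release 6 assembly (dm6) on the strand of the named gene, 5′ to 3′. Capitals mark TATAAA or AGATAA on either strand, the TATA-box and GATA words that were among 16 motifs searched.
lncRNA:CR46036, chr3R:17700560-17700620, plus strand: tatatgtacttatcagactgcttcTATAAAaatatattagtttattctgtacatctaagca
lncRNA:CR31044, chr3R:29214408-29214468, plus strand: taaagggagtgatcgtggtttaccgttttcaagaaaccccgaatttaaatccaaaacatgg
asRNA:CR44429, chrX:15298441-15298501, minus strand: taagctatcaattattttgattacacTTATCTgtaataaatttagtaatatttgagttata
lncRNA:CR44409, chr2L:17430156-17430216, plus strand: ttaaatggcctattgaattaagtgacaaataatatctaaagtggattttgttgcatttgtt
tRNA:Gln-TTG-2-1, chrX:3427717-3427777, minus strand: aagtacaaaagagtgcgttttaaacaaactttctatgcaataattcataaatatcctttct
mir-9377, chrX:12665614-12665674, plus strand: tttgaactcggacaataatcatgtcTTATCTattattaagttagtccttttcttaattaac
snRNA:U6:96Ac, chr3R:24557041-24557101, plus strand: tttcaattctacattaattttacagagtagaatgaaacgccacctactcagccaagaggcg
All 7 windows were poor in G and C, from 11 of 61 bases at asRNA:CR44429 to 24 of 61 at lncRNA:CR31044 and snRNA:U6:96Ac. A second snRNA window, at U1:95Ca and not printed, had 30 of 61. None held the family's core word ACCGGT.

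That word was rare at the noncoding-only summits as a whole. ACCGGT was found within 50 bp of 2 of the 299 summits (0.669%, 0.0811 to 2.40), against 0.836% of equally wide windows placed 500 bp up and down from the summits and against 0.657% of protein-coding-only promoter summits. The shorter word AACCGG was at 6 of 299 summits (2.01%, 0.740 to 4.32), against 2.84% of the flanking windows. Both ACCGGT matches were the full palindrome AACCGGTT, which contains both words, and one of them was at snoRNA:Psi18S-176.

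The other match, chosen for display after its values were seen because it carries the palindrome, lay under a weak peak in an intron of bun. The summit was 327 bp downstream of the start of a mature microRNA entry counted with the mir-967 hairpin gene. Its 101-base window is shown with the palindrome in capitals.
mir-967, chr2L:12459659-12459759, minus strand: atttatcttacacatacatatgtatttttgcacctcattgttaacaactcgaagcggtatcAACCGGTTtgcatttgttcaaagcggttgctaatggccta
The mir-967 peak had a signal of 215, with 92.7 in replicate 1 and 141 in replicate 4.

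Among the classes of noncoding gene, lncRNAs supplied most of the peaks. The nearest noncoding TSS belonged to a lncRNA at 222 of 299 peaks (74.2%), to a tRNA at 25, to an antisense RNA at 22, to a microRNA at 15, to a snoRNA or scaRNA at 6, to a pseudogene at 4 and to an snRNA at 3. Another 2 were at snoRNA host genes, Uhg4 and Uhg1, and 0 were at the 99 annotated rRNA genes. The 299 peaks had 284 different nearest genes, of which 15 had 2 peaks each. At 30 peaks (10.03%) more than 1 noncoding gene had a TSS in the window.

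The share of genes carrying a listed peak differed between classes. It was 289 of 1944 lncRNA genes (14.9%, 13.3 to 16.5), 68 of 503 antisense RNA genes (13.5%, 10.7 to 16.8) and 53 of 290 tRNA genes (18.3%, 14.0 to 23.2). Neither the antisense RNAs nor the tRNAs differed from lncRNAs beyond counting error, with differences of -1.35 points (-4.52 to 2.25) and 3.41 points (-0.939 to 8.49). Some tRNA genes lie close together and share a peak, so they are fewer separate units than their number. Shares were lower than for lncRNAs at snoRNA and scaRNA genes (21 of 274, 7.66%, difference -7.20 points, -10.3 to -3.14), at microRNA genes (16 of 260, 6.15%, difference -8.71, -11.6 to -4.80) and at pseudogenes (12 of 268, 4.48%, difference -10.4, -12.9 to -6.86). At rRNA genes the count of 0 of 99 allows a share of up to 3.03% by a limit of 3 counts, and of up to 3.66% by the exact interval. Protein-coding genes had the highest share of these classes, 24.6% of 13945, which was 9.74 points (7.95 to 11.4) above lncRNAs. These shares include peaks that also have a protein-coding TSS in the window. A gene counted when any of its annotated TSSs had a summit in the window, so genes with more TSSs had more windows. The part of this in the differences was not tested.

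**Figure D1:**
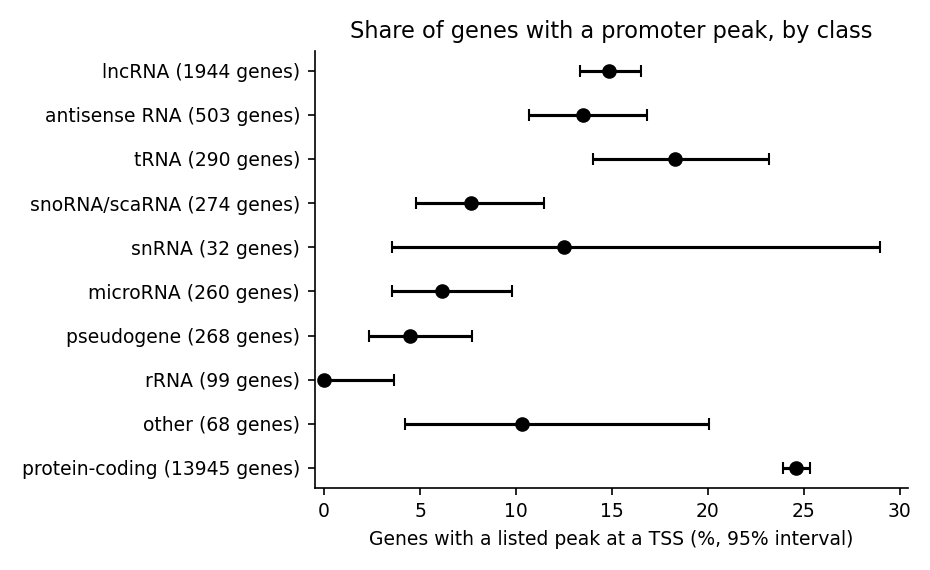
Share of annotated genes with a listed summit within 500 bp of a TSS (x axis, percent) for each class (y axis, with the number of genes). Points are shares and bars are exact 95% intervals; lncRNA, antisense RNA and tRNA genes lie between 13.5% and 18.3%, below protein-coding genes at 24.6% and above snoRNA, microRNA and pseudogene classes at 4.48% to 7.66%.

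Where a noncoding gene starts close to a protein-coding gene, the rule leaves less room for a noncoding-only peak, or none. For 2674 noncoding genes a TSS was more than 1000 bp from every protein-coding TSS, and 275 of these (10.3%, 9.16 to 11.5) had a noncoding-only peak. Among such isolated genes the share was 203 of 1518 lncRNAs (13.4%) and 33 of 211 tRNAs (15.6%). Isolated antisense RNA genes had one at 12 of 211 (5.69%), which was 7.69 points below lncRNAs (-10.7 to -3.38). Over all genes, isolated or not, noncoding-only peaks were in reach of 22 of 503 antisense RNA genes (4.37%, 2.76 to 6.55) and 221 of 1944 lncRNA genes (11.4%, 9.99 to 12.9). Isolated microRNA genes (13 of 200, 6.50%), snoRNA and scaRNA genes (6 of 189, 3.17%) and pseudogenes (4 of 190, 2.11%) were again below the lncRNAs, with each interval of the difference below 0.

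Peak signal at these sites had a median between that of protein-coding promoters and that of distal sites, close to the latter in some settings. The 299 signals ran from 187 to 8544, with a median of 469 (392 to 517). The median was 613 (578 to 647) at the 2893 protein-coding-only promoter peaks and 394 (385 to 401) at the 7684 distal peaks, a ratio of 0.764 to the first and 1.19 to the second. Each replicate's own list of its 11045 strongest peaks gave the same order, with ratios of 0.741 and 1.19 in replicate 1 and of 0.799 and 1.07 in replicate 4. With a TSS window of 250 bp the ratios were 0.627 and 1.01. In replicate 4 the noncoding-only median of 134 (117 to 153) overlapped the distal median of 126 (124 to 129) in its interval. The upper 5522 peaks by signal, 50% of the list by construction, held 154 of the 299 noncoding-only peaks (51.5%). That share was 10.9 points lower than at protein-coding promoters (-16.8 to -5.00) and 6.39 points higher than at distal sites (0.628 to 12.1).

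Classes differed in strength. The median was 516 (425 to 663) over the 222 lncRNA peaks and 485 (374 to 1135) over the 22 antisense RNA peaks, but 237 (209 to 326) over the 25 tRNA peaks. The difference between lncRNA and tRNA peaks was also present when each replicate's own list was classified, with medians of 386 and 177 in replicate 1 (219 and 22 peaks) and of 153 and 83.7 in replicate 4 (208 and 32 peaks). MicroRNA peaks had a median of 321 (227 to 834). The 3 snRNA peaks, at 229 to 263, were all weak. The thresholded list ends at a signal of 187, so the class medians from it leave out the weaker pooled peaks.

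**Figure D2:**
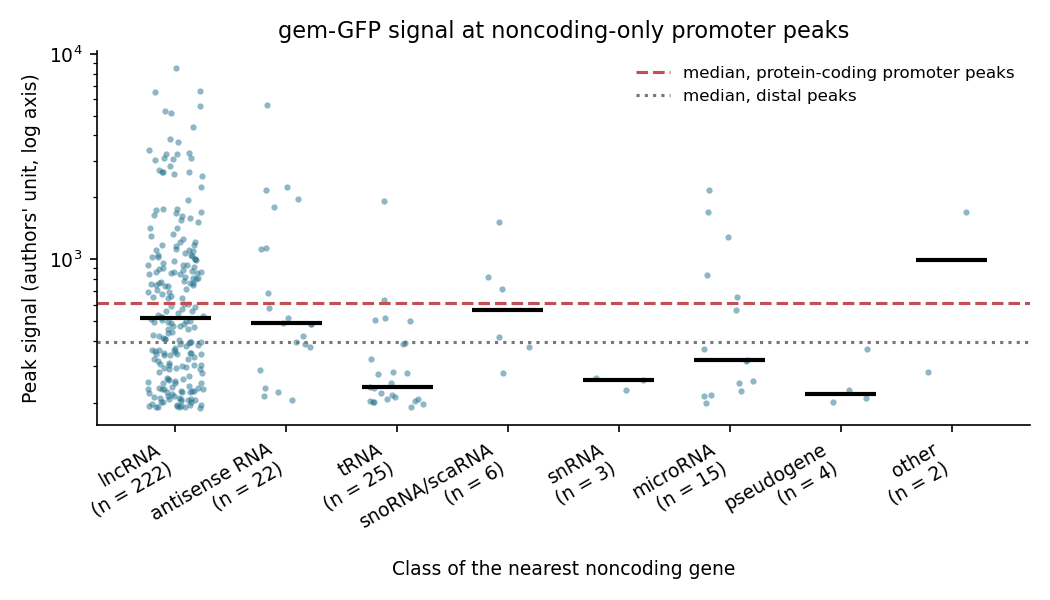
Signal of each noncoding-only promoter peak (y axis, the authors' unit, log axis) by the class of the nearest noncoding gene (x axis, with the number of peaks). Points are peaks, black bars are class medians, and the dashed and dotted lines are the medians of protein-coding promoter peaks (613) and distal peaks (394); lncRNA and antisense RNA medians lie between the lines, and the tRNA median of 237 lies below both.

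The strongest noncoding-only peak was at lncRNA:CR44339 (FBgn0265427), on 2R at 12984971 to 12985450, with the summit 151 bp upstream of its TSS. Its signal was 8544, with 6320 in replicate 1 and 2247 in replicate 4, and it ranked 29 in the list. The nearest protein-coding TSS, 4222 bp away, was that of Psc, a Polycomb group gene. The second, at lncRNA:CR46036 (3R, 17700338 to 17700841), had a signal of 6617, with 4672 and 1964 in replicates 1 and 4. It was also 151 bp upstream and lay in an intron of osa, which encodes a subunit of the Brahma chromatin remodelling complex. Its window, shown above, has a TATAAA near the summit.

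The third was at lncRNA:CR31044 (3R, 29214094 to 29214647), a transcript that holds the hairpins of mir-279 and mir-996. The signal was 6524, with 4769 in replicate 1 and 1766 in replicate 4, at 124 bp upstream of the TSS. A second, far weaker peak of 227 lay 204 bp upstream of the mir-279 hairpin itself, with 113 and 116 in the replicates. Next came asRNA:CR44429 (X, 15298240 to 15298713), an antisense RNA in an intron of gce, which encodes a receptor for juvenile hormone. Its signal was 5603, with 3932 and 1685 in the replicates, and the TSS of gce itself was 538 bp from the summit, just outside the window of the rule.

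At lncRNA:CR44409 (2L, 17429984 to 17430487) the signal was 5577, with 4183 and 1426, in an intron of Dif, an NF-κB family factor of the immune response, and 480 bp downstream of the noncoding TSS. Neighbouring lncRNA genes on 2L supplied the sixth and seventh. The CR45352 peak (14022001 to 14023034, signal 5256, replicates 3789 and 1478) and the CR31840 peak (14023877 to 14024412, signal 5161, replicates 3774 and 1396) were neighbours, and the nearest protein-coding TSSs were those of NimC3, a Nimrod family gene, and hll.

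The other 13 of the 20 strongest had signals from 2706 to 4383, all at lncRNAs. Some lay near well-known genes without a protein-coding TSS inside the window. CR42657 (X, signal 3405, replicates 2380 and 1036) was 677 bp from the TSS of nej, the fly CBP acetyltransferase, and CR45668 (X, signal 3118, replicates 2308 and 802) was 655 bp from Act5C, a cytoplasmic actin gene. CR44810 (2R, signal 3267) was 4527 bp from slbo, a C/EBP factor, and CR45541 (X, signal 3021) was 1759 bp from Hex-A, a hexokinase gene. CR46102 (3R, signal 2706) lay in an intron of LpR2, a lipophorin receptor gene. The rest of the 20 were CR45595, CR44676, CR44867, CR44868, CR44380, CR43626 and the 2 peaks of CR45251. Of these 20 peaks, 19 were at lncRNAs, 14 were upstream of the TSS, and all 20 had a match in both replicates, at ranks no lower than 453 in replicate 1 and 677 in replicate 4.

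Antisense RNA genes overlap another gene on the opposite strand. After asRNA:CR44429 the strongest were asRNA:CR45281 on 2R, with a signal of 2240 (replicates 1650 and 590), and asRNA:CR45999 on 3R, with 2162 (replicates 1459 and 704). Of the 22 antisense RNA peaks, 18 lay inside protein-coding genes. Summits were upstream of the TSS at 19 of 22 (86.4%), against 128 of 222 lncRNA peaks (57.7%), a difference of 28.7 points (8.02 to 39.8).

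Among tRNA genes, which encode the adaptors of translation, 1 peak stood apart from the others. It was at tRNA:Gln-TTG-2-1 (X, 3427572 to 3427932), 224 bp upstream, with a signal of 1922 and values of 1469 and 464 in replicates 1 and 4. The next, tRNA:Arg-CCT-1-2 on 2R, had 631 (replicates 390 and 254), and tRNA:Ile-AAT-1-9 on 2R had 517 (replicates 391 and 104). The other 22 were between 190 and 506. Of the 25, 12 were on 2R and 17 were upstream of the gene. A match in both replicates was found for 17 (68.0%), against 182 of 222 lncRNA peaks (82.0%), a difference of -14.0 points whose interval (-34.1 to 1.83) includes 0. None of the 25 windows had more than 50% of its 31-base words repeated elsewhere in the genome.

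A microRNA is a short RNA that represses messages, and it is cut from a hairpin within a longer primary transcript. The 2 sets of peaks tied to microRNAs were those near the hairpin itself (15) and those at the TSS of a longer noncoding gene that contains a hairpin (10), 25 peaks in all (8.36%). RefSeq names 4 of these longer genes as primary microRNA transcripts: CR31044, CR43650, CR42651 and CR46006. The hairpin-containing set was led by lncRNA:CR31044, described above. At lncRNA:CR43626 on 3L, which holds mir-282, there were 2 peaks, of 3061 (replicates 2116 and 952) and 393 (replicates 255 and 139), both upstream of a TSS. The lncRNA:CR43650 peak on 2R had 776 (replicates 539 and 244) at 132 bp upstream. This gene contains mir-8, a microRNA known for roles in growth and in neurons. A further peak of 248 (replicates 188 and 59.4) lay 197 bp upstream of the mir-8 hairpin. The other genes of this set were asRNA:CR46194 with mir-281-1 and mir-281-2 (1135), Hsromega with mir-4951 (1039), CR43836 with mir-31b (586), CR42651 with mir-10 (520), CR43857 with mir-275 (303) and CR46006 with mir-276a (197). The 12 peaks at genes with a microRNA or snoRNA inside, the Uhg genes included, had a median of 681 (303 to 1697), and 83.3% of their summits were upstream of the TSS.

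Peaks near the hairpins were led by mir-9377 (X, 12665452 to 12665829) with 2170 (replicates 1556 and 610), in an intron of Tis11, and by mir-9378 (2L, 10751924 to 10752297) with 1690 (replicates 1365 and 327), in an intron of CG17124. The third was the peak at mir-ban, the bantam hairpin that promotes growth and blocks apoptosis, on 3L at 642411 to 642828. It had 1277 (replicates 954 and 324) and lay outside protein-coding genes, 399 bp downstream of the nearest annotated start. Of the 15, 8 were upstream of the nearest start and 8 lay inside protein-coding genes. At 7, mir-9377 and mir-ban included, the nearest start was that of a mature microRNA entry counted with the hairpin gene. At mir-9378 and mir-2282 there were 2 peaks each.

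Genes for snRNAs, the RNA parts of the spliceosome, had 3 peaks. U6:96Ac on 3R had a signal of 263 (replicates 187 and 73.1), 144 bp upstream of the gene. U1:21D on 2L had 229 (replicates 199 and 43.5), and U1:95Ca on 3R had 259, with 197 in replicate 1 and no matched peak in replicate 4. At 2 of these 3 summits more than 50% of the 31-base words occurred more than once in the genome, and no other noncoding-only summit did so. Reads that hold only repeated words cannot be assigned to 1 copy by sequence alone, and how the authors treated such reads is not given in the sources used here. The strongest snoRNA peak was at Or-CD13 on 2R, with 1516 (replicates 1104 and 409) in an intron of egr. Another, at abba-a on 2R, had 714 and was matched in replicate 4, at 181, but not in replicate 1. Pseudogene peaks were weak, from 201 to 364, the strongest being at CR14117 on 3L (replicates 226 and 140), followed by tRNA:Glu-CTC-5-1Psi on 2R (229) and CR45879 on 3L (209).

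Known noncoding genes were looked up by name whether or not they had a peak. Of 33 such genes, 8 had a noncoding-only peak, which was in reach of 318 of all 3738 noncoding genes (8.51%). The 2 shares were not compared by a test. Of the 33, 3 had a promoter peak that was also within 500 bp of a protein-coding TSS, and 22 had no listed summit within 500 bp of a TSS. The strongest of the 8 was Uhg4, a host gene of snoRNAs, on 2R at 9094918 to 9095406, with 1697 (replicates 1083 and 608) at 114 bp upstream. It was followed by flam, the flamenco locus whose transcript is processed into piRNAs that silence transposons in the ovary, with 1328 (replicates 955 and 382) at 178 bp from a TSS on X. Next was mir-ban, and then Hsromega, a nuclear RNA of the heat shock response, with 1039 (replicates 715 and 351). The yar peak, in the yellow-achaete interval on X, had 505 (replicates 362 and 146), and Uhg1 had 282 (replicates 169 and 100). The mir-8 hairpin peak of 248 is given above.

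The roX genes encode the RNAs of the dosage compensation complex, which coats the male X. The roX1 peak was weak, with 226 (replicates 162 and 66.7) at 129 bp from a TSS. For roX2 no listed summit was within 500 bp, and the strongest pooled peak there, at 150, fell below the list. Host genes Uhg2, Uhg5 and Uhg8 had peaks of 415, 256 and 1767 that were shared with a protein-coding TSS. The genes without a listed summit in the window included bxd and iab8 of the bithorax complex, let7C, both 7SK genes, which encode an inhibitor of the elongation factor P-TEFb, both 7SL genes of the signal recognition particle, the RNase P and RNase MRP RNA genes, the selenocysteine tRNA gene and the hairpins of mir-1, mir-9a, mir-10, mir-124, mir-184, mir-278 and mir-iab-4. Absence from the list does not show absence of binding, since the depth behind it is unknown.

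Summits were placed differently from those at protein-coding promoters. Of the 299, 182 (60.9%, 55.1 to 66.4) lay upstream of the nearest noncoding TSS, against 2436 of 2893 (84.2%, 82.8 to 85.5) at protein-coding-only promoters. The difference was -23.3 points (-29.1 to -17.8), and it was -23.7 points (-29.5 to -18.1) in the list of replicate 1 and -24.1 points (-29.9 to -18.5) in that of replicate 4. With a TSS window of 250 bp it was -10.8 points (-17.7 to -4.77). The stretch from 51 to 200 bp upstream held 72 of the 299 summits (24.1%), against 44.6% of the protein-coding-only ones, a difference of -20.5 points (-25.4 to -15.1). The median distance to the TSS was 231 bp at noncoding and 168 bp at protein-coding promoters, and 40.1% against 21.9% lay more than 300 bp away. Peaks with TSSs of both kinds in the window were upstream in 71.6%.

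**Figure D3:**
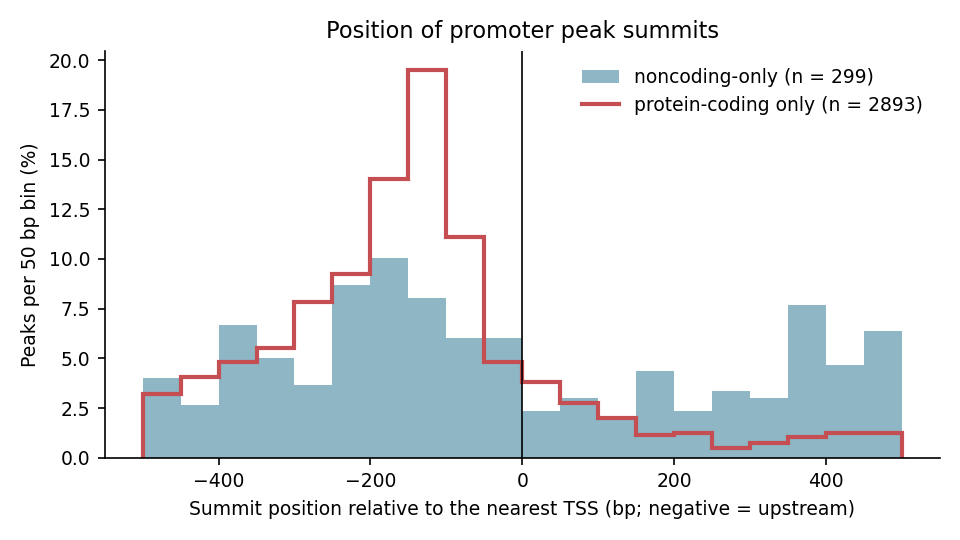
Position of summits relative to the nearest TSS (x axis, bp, negative is upstream) as the percent of peaks per 50 bp bin (y axis), for the 299 noncoding-only peaks (filled) and the 2893 protein-coding-only peaks (line). The fullest protein-coding bin, 150 to 100 bp upstream, held 19.5% of peaks, against 8.03% of noncoding-only peaks, which were spread over the window, with 7.69% in the bin from 350 to 400 bp downstream.

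The share of upstream summits moved with distance. It was 36 of 52 (69.2%) within 100 bp of the noncoding TSS, 54 of 73 (74.0%) at 101 to 200 bp, 37 of 54 (68.5%) at 201 to 300 bp, 35 of 67 (52.2%) at 301 to 400 bp and 20 of 53 (37.7%) at 401 to 500 bp. Signal did not fall with distance over the same bins, with medians of 390 (341 to 498), 395 (304 to 602), 496 (392 to 866), 425 (344 to 560) and 652 (361 to 860), whose intervals overlap. Upstream and downstream summits had medians of 477 (393 to 560) and 407 (359 to 564).

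Members just inside and just outside the limits of the rule had signals in the same range. The 3 peaks nearest inside the noncoding limit, at 497 to 499 bp, were at CR45277 (326), Or-CD13 (1516) and CR44467 (559), and the 3 nearest outside, all at 501 bp, were at CR43721 (274), CR45390 (278) and CR44176 (441). On the protein-coding limit, Uhg4 (1697), CR43837 (560) and CR45739 (359) were inside, with a protein-coding TSS at 501 to 519 bp. CR45010 (419), CR44831 (393) and CR46044 (1479) were outside, at 490 to 500 bp.

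Most of these sites were outside protein-coding genes, as were most other promoter peaks. A total of 199 summits (66.6%, 60.9 to 71.9) lay outside protein-coding genes, 92 (30.8%) in their introns, 8 (2.68%) in UTRs or noncoding exons and 0 in coding exons. The count of 0 allows a share of up to 1.00% by the limit of 3 counts, and of up to 1.23% by the exact interval. The 100 inside protein-coding genes were 33.4% (28.1 to 39.1), against 66.0% of distal summits, a difference of -32.5 points (-37.7 to -26.9). The other promoter groups were nearer, with 1245 of 2893 protein-coding-only summits (43.0%) and 65 of 169 summits near TSSs of both kinds (38.5%) inside. For comparison, of 3127 isolated noncoding TSSs 39.9% lay inside protein-coding genes, 6.47 points above the share of the noncoding-only summits (-11.9 to -0.681 for summits minus TSSs). Those TSSs included 545 annotated starts of 200 microRNA genes, 334 of them inside protein-coding genes, so some genes counted several times. The comparison was not made without the microRNA starts. The part that the position of annotated genes has in the difference from distal summits was not tested. Over all classes, an isolated TSS inside a protein-coding gene carried a noncoding-only peak in 97 of 1248 cases (7.77%). Outside, it was 207 of 1879 (11.0%), a difference of -3.24 points (-5.27 to -1.14). For lncRNAs alone it was 53 of 413 (12.8%) inside and 160 of 1194 (13.4%) outside, a difference of -0.567 points (-4.11 to 3.44). The intervals of this difference for antisense RNAs (-23.2 to 0.391) and tRNAs (-6.34 to 13.7) also included 0. Signals had a median of 485 (365 to 574) inside and 454 (383 to 559) outside.

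The nearest protein-coding TSS was a median of 3573 bp from the summit, and at most 58765 bp. It was 501 to 1000 bp away at 37 peaks (12.4%), 1001 to 2000 bp at 60, 2001 to 5000 bp at 94, 5001 to 10000 bp at 50 and farther at 58 (19.4%). Neither signal nor position moved steadily with this distance. The medians were 416 (359 to 559), 584 (350 to 813), 482 (304 to 631), 405 (328 to 673) and 470 (361 to 546) in that order, with overlapping intervals, and the upstream share was between 56.8% and 62.1% in every bin.

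A second listed summit was often close by. Another summit lay within 1000 bp of 107 of the 299 (35.8%, 30.4 to 41.5), against 26.4% of protein-coding-only promoter summits, a difference of 9.38 points (3.91 to 15.2), and 27.4% of distal summits, a difference of 8.34 points (3.02 to 14.0). Peaks near TSSs of both kinds had a neighbour in nearly the same share, 60 of 169 (35.5%), and no interval of that difference was computed. Noncoding-only peaks with such a neighbour had a median signal of 528 (424 to 740), and those without had 395 (341 to 495). Examples among the strongest were the 2 peaks of CR45251 and those of CR44867 and CR44868, with 661 bp and 884 bp to the nearest summit. Each of these pairs therefore counts 1 neighbourhood more than once.

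The base composition under the summits was close to that elsewhere in the list. The median GC content within 50 bp of the summit was 29.7% (27.7 to 30.7), against 43.6% (42.1 to 44.1) in windows 500 bp to either side of the same summits. It was 28.7% at both protein-coding-only and distal summits. Single summits ran from 13.9% to 55.4%. The dip was narrower than at protein-coding promoters. At 150 bp to either side, the mean was 42.4% and 43.5% at noncoding-only peaks, 42.3% and 42.6% at distal peaks, and 39.5% and 39.7% at protein-coding-only peaks.

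**Figure D4:**
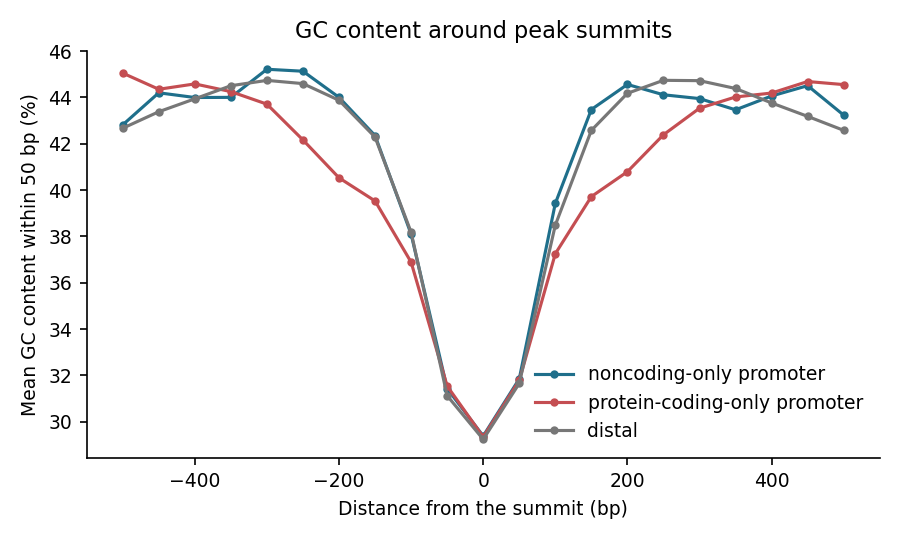
Mean GC content within 50 bp (y axis, percent, not starting at 0) at steps of 50 bp around the summit (x axis, on the plus strand of the assembly) for noncoding-only promoter, protein-coding-only promoter and distal peaks. All 3 lines fall to between 29.2% and 29.4% at the summit; 200 bp away, protein-coding-only peaks are at 40.5% and 40.8%, below the 44.0% and 44.6% of noncoding-only peaks.

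Of 16 motifs searched on both strands within 50 bp of the summits, 1 had a 95% interval of the difference from protein-coding-only promoters that excluded 0. This was CGATA, the core of sites bound by the boundary factor BEAF-32, which is also contained in the DRE word TATCGATA. It was at 18 of the 299 noncoding-only summits (6.02%, 3.61 to 9.35), against 421 of 2893 (14.6%, 13.3 to 15.9) protein-coding-only summits. At distal summits it was 9.37%, and the interval of that difference (-5.63 to 0.00417) includes 0. The difference from protein-coding-only summits was -8.53 points (-11.1 to -5.01), and its interval widened for 16 motifs was -12.1 to -2.79. It was -8.21 points (-10.7 to -4.69) in the list of replicate 1 and -10.8 points (-13.6 to -6.98) in that of replicate 4. In windows 500 bp to either side of the summit the shares were 11.0% and 12.2%. Over all listed summits, CGATA was at 10.7%. Over whole peaks other words differed too. TATCGATA was in 2 of the 299 noncoding-only peaks (0.669%), against 271 of 2893 protein-coding-only peaks (9.37%). CAGCTG was in 6.69% against 20.2%, and GTCACACT in 0 against 6.29%. Some words, such as AACCGG (9.36% against 7.16%), went the other way, but the core word ACCGGT did not (2.01% against 2.87%). The noncoding-only peaks were narrower, with a median of 342 against 390 bases, and no interval was computed for whole peaks.

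The TATA-box word TATAAA was at 74 summits (24.7%, 19.96 to 30.04), against 12.4% of the flanking windows, and at 29.0% of protein-coding-only summits. The GATA word AGATAA was at 33 (11.0%, 7.72 to 15.1), against 6.86% of flanks and 8.68% of protein-coding-only summits. A run of 8 A (AAAAAAAA) was at 10.7%, against 5.85% of flanks. GAGAGAG, the word of GAGA factor, was at 1 summit (0.334%), and CAGGTA, that of the early activator Zelda, was at 4 (1.34%), against 2.01% and 3.68% of flanks. The initiator word TCAGT was at 18.4%, against 13.7% of flanks. The summits were poorer in G and C than their flanks, and its part in these shares was not tested. A match is a description of these letters and not of a factor.

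Replication was at the level of the list. A summit within 100 bp among the 11045 strongest peaks of both replicates was found for 239 of the 299 (79.9%, 74.9 to 84.3), against 79.6% of all listed peaks, so the noncoding-only peaks were near the background. The difference from the rest of the list was 0.378 points (-4.59 to 4.60). Protein-coding-only peaks were matched at 84.0%, a difference of -4.10 points (-9.17 to 0.273). Distal peaks were matched at 77.8%, a difference of 2.17 points (-2.82 to 6.43). Of the 299, 40 were matched in replicate 1 only, 13 in replicate 4 only and 7 in neither. Unmatched peaks were weak, with a median signal of 218 against 586 for matched ones. Matches were sought only among the strongest peaks of each replicate, so part of this difference is built into the rule. In the whole deposited lists of the replicates, which also hold weaker peaks, 297 of the 299 had a match in replicate 1 and 292 in replicate 4. Nearly all other peaks matched there too. The counts in replicates 1 and 4 were 2810 and 2777 of the 2893 protein-coding-only peaks, and 7574 and 7371 of the 7684 distal peaks.

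Across the 290 peaks with a value in both replicates, the signals had a Spearman coefficient of 0.868, against 0.928 across 2696 protein-coding-only peaks. These are descriptions across peaks of the same 2 libraries, and the list was itself chosen from both.

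**Figure D5:**
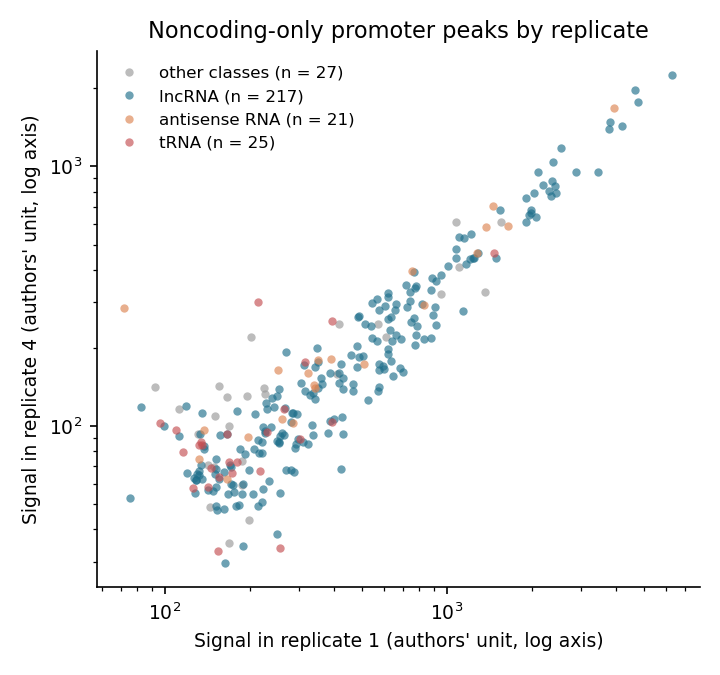
Signal in replicate 1 (x axis) and replicate 4 (y axis) of the 290 noncoding-only promoter peaks with a matched peak in both whole lists (the authors' unit, log axes), coloured by class. The strongest peaks lie along 1 band, and the weaker peaks scatter more widely around it; the Spearman coefficient was 0.868.

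Peaks were spread over the arms much as noncoding genes are. There were 71 on 2L, 69 on 2R, 62 on 3R, 56 on 3L, 39 on X and 2 on 4, and X held 13.0% (9.44 to 17.4) of the peaks and 13.6% of the noncoding genes. As a share of all listed peaks of the arm, noncoding-only peaks were 1.77% (1.26 to 2.41) on X and 4.06% (3.17 to 5.11) on 2R. Of the 69 on 2R, 12 were at tRNA genes.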

How the data were processed

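Peaks were read from 4 deposited lists on assembly dm6: 1 for each replicate, 1 pooled and 1 thresholded by the irreproducible discovery rate. Per the accompanying listings, the authors made the replicate and pooled lists from the replicates' alignments and 1 further file, which also entered their control-normalized tracks. The aligner, the caller, its versions and the threshold are not given in the sources used here. For every peak the authors deposited a signal and a −log10 q-value. Since 85.3% of the noncoding-only peaks share the top −log10 q-value, peaks were ranked by signal. The 11045 thresholded peaks were the strongest 11045 of the pooled list by summit and signal. Read depth is unknown from these lists.

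TSSs were transcript starts of Ensembl release 115 (BDGP 6.54) without transposable elements, on 6 arms. The files and RefSeq's assembly have the same release 6 coordinates. Of 4219 noncoding entries, 481 of 18 to 29 bases lay inside the 260 microRNA hairpin genes and were counted with them, which left 3738 noncoding genes. Classes followed biotypes and names. RefSeq synonyms named primary microRNA transcripts. Replicate values are those of the strongest peak with a summit within 100 bp.

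Medians carry order-statistic 95% intervals. No p-values were computed. Named are the 20 strongest peaks, the 3 strongest per class, a list of known noncoding genes and the 3 peaks nearest to each limit, and other names were chosen after their values were seen. 1 snoRNA peak is not reported here. The members and lists were chosen with earlier results of these data known. Alternatives changed the TSS window, TSS set, classes, list, replicate, matching distance and motif window. Python 3.11.15, numpy 2.4.6, pandas 2.3.3, scipy 1.17.1 and matplotlib 3.10.9 were used, and functions were tested on simulated data.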

Additional observations from a re-analysis of the deposited data

How the results depend on the processing

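Of 98 alternative values, 89 were judged unchanged: a count within 1.5 times, a share, ratio or GC difference within the interval of the value given, or a difference of shares whose interval stayed on the same side of 0 or still included it. The motif difference, 0.0121 points, and the replicate match difference, 0.378 points, had intervals that included 0 and changed sign under several settings, from -0.518 to 0.496 and from -2.38 to 2.88. The number of noncoding-only peaks was 188 with a TSS window of 250 bp, 502 with 1000 bp and 154 in the upper 5522 peaks by signal. The share of noncoding genes with a listed peak, 12.6% in the report's setting, was 6.80%, 22.0% and 6.61% in that order. The ratio of median signal to protein-coding-only promoters, 0.764, was 0.627 with 250 bp and 0.847 in the upper 5522 peaks, and the ratio to distal peaks, 1.19, was 1.01 with 250 bp. The upstream difference was -10.8 points with 250 bp. With matches sought in each replicate's whole list, the difference in replicate match from the rest of the list was 2.76 points (0.115 to 4.25). The cause was not tested. Leaving out replicate 4 or 1 gave 292 to 300 peaks, a signal ratio to distal peaks of 1.07 to 1.19 and an upstream difference of -24.1 to -23.7 points. Leaving out mature microRNA entries, or microRNA and snoRNA genes, was added after the data were seen and gave 299 and 281 peaks. With 1 group no paired analysis was possible because there is no second group to pair. Depth is unknown, so peaks not listed cannot be told from sites too shallow to call.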

Other observations

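The pooled list holds 18955 weaker peaks outside the thresholded list, which enter no comparison above. By the same rule, 568 of them were at promoters of noncoding genes only. tRNA genes were nearest to 108 of these (19.01%), against 25 of the 299 thresholded ones (8.36%), a difference of 10.7 points (5.89 to 15.0). For lncRNAs the numbers were 360 of 568 (63.4%) and 222 of 299 (74.2%), a difference of -10.9 points (-17.0 to -4.36). The intervals for antisense RNA, snoRNA, snRNA, microRNA, pseudogene and other noncoding genes included 0, and no weaker peak was nearest to an rRNA gene. These weaker peaks did not pass the authors' threshold, so they describe the pooled list only.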
